A study of Homo sapiens with 8 samples.

Results

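The transcripts examined were 4 CCN matricellular genes (CCN1, CCN2, CCN3 and CCN4), the transcriptional coactivators YAP1 and WWTR1, and 4 genes known as targets of these coactivators (ANKRD1, AMOTL2, AJUBA and LATS2), 10 of the 21059 genes in the expression table. They were taken by gene symbol, and the group was selected on the same comparison of high with low glucose that is described here, so the values of the 10 genes are given as a description, without a test. MDA-MB-157, an ER-negative human breast cancer line, was kept in T25 flasks for 48 hours. The low glucose group received 5 mM glucose and the high glucose group 25 mM, with 4 libraries in each. Per the methods of the study, the medium of both groups held no serum, all cells were first conditioned in low glucose, and 5 mM was the control for a 25 mM model of hyperglycemia. No mannitol-matched control was among the 8 libraries, so glucose and osmolarity cannot be told apart in these data. In its proliferation and migration assays, the study reports no difference between controls that did or did not hold mannitol. Whether the 4 flasks of a group were separate experiments is not stated, so p-values measure only the spread between the 8 libraries.

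In the Hippo pathway, the kinases MST1/2 activate the kinases LATS1/2. These phosphorylate YAP1 and its paralog TAZ, the product of WWTR1, and hold them in the cytoplasm. When released, both enter the nucleus, bind TEAD transcription factors and turn on genes such as CCN1 and CCN2, and also LATS2 and AMOTL2, whose products restrain YAP1 and TAZ in turn. CCN proteins are secreted into the matrix, where they bind integrins, proteoglycans and growth factors, and in breast cancer they are known mostly for their part in adhesion, migration and angiogenesis.

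Expression values are the deposited CPM, reads of a gene relative to the library total, with the TMM scaling (trimmed mean of M values) already applied by the authors. Library depth was estimated at 9721650 to 12482500 reads, and 3 reads, taken as the floor, corresponded to 0.212 to 0.267 CPM (counting error only). Log2 changes are on the log2(CPM + 1) scale, which understates the change of low genes. Of the identity markers, ESR1 was at 0 to 0.170 CPM and the blood marker PTPRC at 0 to 0.178 CPM, both below the floor in every library, while VIM, a mesenchymal marker, averaged 4091 ± 28.5 CPM (SD, n = 4) in low glucose libraries and 2967 ± 210.3 CPM in high glucose libraries. Of the other mesenchymal markers, FN1 was also lower at high glucose (3549 to 3650 and 2008 to 2804 CPM), while CDH2 was higher (55.2 ± 2.29 and 75.5 ± 1.80 CPM). Epithelial KRT8 (130.8 ± 5.95 and 88.3 ± 10.3 CPM) and KRT18 (233.5 ± 4.85 and 170.1 ± 18.1 CPM) were lower and EPCAM (3.93 to 4.93 and 6.58 to 7.62 CPM) higher, and none of these 6 markers overlapped between the groups. Among all genes with a mean of at least 5 CPM, 32.5% lay entirely above low glucose and 32.5% entirely below. CDH1 and PGR overlapped, at 0.330 to 1.41 and 4.33 to 5.95 CPM over all libraries. The endothelial marker PECAM1 was at 0.911 to 1.24 CPM in the low and 1.51 to 2.84 CPM in the high glucose libraries, again without overlap. Of all genes above 0 in at least 1 library, 21.8% lay entirely above low glucose. The part of these markers in the results was not tested. High glucose replicate 1 stood apart from the other 3 of its group, and its deviation from them ran against transcript length (Spearman's rho across 11223 genes -0.65). Values without it are given where they differ. For the other 3, rho was 0.25, 0.34 and 0.47, each taken against a mean that held replicate 1. A trend on length held 6.96% of the deviation of replicate 1 from the mean of all 8 libraries. It held 1.59%, 2.73% and 5.05% in high glucose replicates 2, 3 and 4, and 0.433% to 1.20% in low glucose libraries.

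Promoter sequences are shown for CCN2, ANKRD1 and LATS2, because these 3 genes hold the TEAD recognition letters GGAATG, searched on both strands, in 3 different arrangements around the transcription start. Each window runs from 250 bases before to 50 bases after a RefSeq transcription start on GRCh38.p14 and is written 5′ to 3′ along the strand of the gene, which is the minus strand for all 3. Capitals mark TEAD matches and, in ANKRD1, also the AP-1 motif TGANTCA. The windows are chr6:131951323-131951622 for CCN2, chr10:90921038-90921337 for ANKRD1 and chr13:21061537-21061836 for LATS2.
CCN2: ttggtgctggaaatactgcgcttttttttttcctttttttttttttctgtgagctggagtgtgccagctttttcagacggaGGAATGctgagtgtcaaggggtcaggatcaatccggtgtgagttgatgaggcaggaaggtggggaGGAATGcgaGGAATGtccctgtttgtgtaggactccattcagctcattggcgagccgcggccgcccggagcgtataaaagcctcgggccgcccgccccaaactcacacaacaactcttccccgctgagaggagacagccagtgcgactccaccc
ANKRD1: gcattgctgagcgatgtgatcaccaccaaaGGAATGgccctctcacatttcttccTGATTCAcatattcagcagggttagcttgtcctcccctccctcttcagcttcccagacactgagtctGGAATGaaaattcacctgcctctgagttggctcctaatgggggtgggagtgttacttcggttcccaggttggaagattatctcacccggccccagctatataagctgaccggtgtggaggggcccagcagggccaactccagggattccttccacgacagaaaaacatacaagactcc
LATS2: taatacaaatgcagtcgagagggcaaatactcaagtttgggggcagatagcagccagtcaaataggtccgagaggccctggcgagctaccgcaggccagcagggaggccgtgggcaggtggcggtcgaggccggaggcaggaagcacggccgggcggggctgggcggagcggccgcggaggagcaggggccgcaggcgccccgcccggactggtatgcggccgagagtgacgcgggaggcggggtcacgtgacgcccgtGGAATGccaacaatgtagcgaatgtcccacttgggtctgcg

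RefSeq windows were found for 7 of the 10 genes, 10 windows in all, since WWTR1, AMOTL2 and AJUBA have 2 starts each. CCN1, CCN3 and CCN4 had no entry. The TEAD letters occurred on either strand in 6 of the 10 windows, whereas 14.0% of all 35116 windows of this length held them. These windows belonged to 6 of the 7 genes, and a share per gene over all genes was not computed. In CCN2 the matches began 169, 104 and 95 bases before the start, so that a spacer of only 3 bases separated the last pair. ANKRD1 had matches beginning 220 and 128 bases before the start, with its AP-1 match between them at 195 bases before. The match of LATS2 lay after the start, from base 10 to base 15. YAP1 itself had 1 match beginning 162 bases before its start, AMOTL2 had 1 at 69 bases before in 1 of its windows, and AJUBA had 1 at 59 bases before in 1 of its windows. WWTR1 had none in either window. The AP-1 motif was found in no window but that of ANKRD1 (7.71% of all windows), and the CArG box, the serum response factor motif, in none of the 10 (1.29% of all windows). Apart from the coactivators YAP1 and WWTR1, these genes are in the group as known YAP/TEAD targets, and the matches describe the windows and say nothing of occupancy in these cells.

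**Figure D1:**
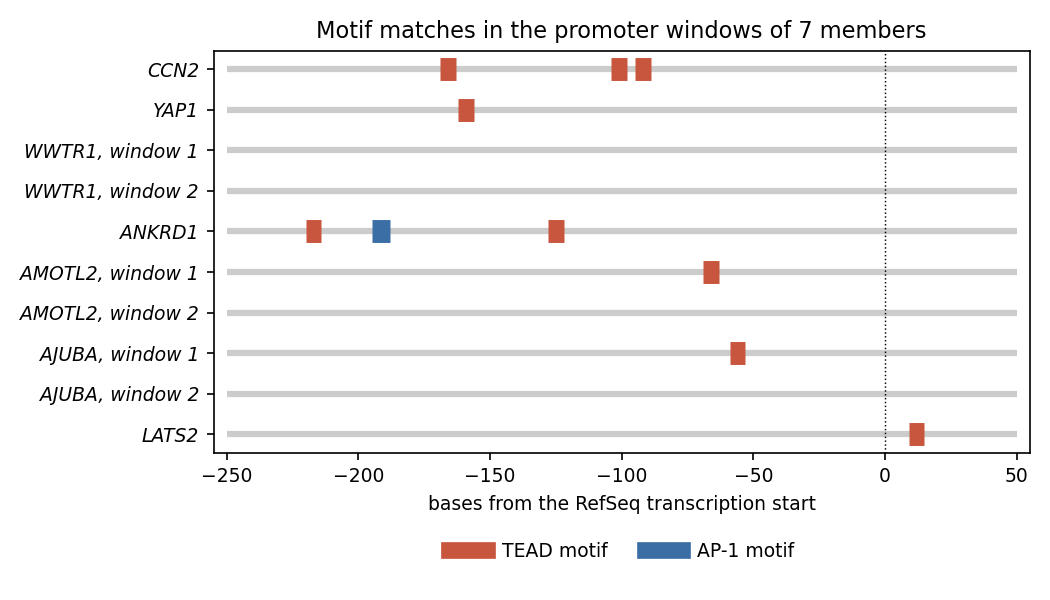
Positions of TEAD (red) and AP-1 (blue) motif matches on either strand in the 10 RefSeq promoter windows of 7 genes, in bases from the transcription start (dotted line), each grey bar being 1 window. Matches of the TEAD letters lie in 6 windows, with 3 in CCN2 and 2 in ANKRD1, and none lies in the windows of WWTR1.

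At high glucose, 3 of the 4 CCN transcripts, both coactivators and all 4 targets were at higher levels, with no overlap between the 4 high and the 4 low glucose libraries, and CCN4 was too low to compare. The ratios of mean CPM ran from 1.12 for WWTR1 to 2.80 for CCN3. Because this contrast was used to choose the genes, nothing is read from their counts: 9 of the 10 lay entirely above low glucose, beside 21.8% of the 20203 genes above 0 in at least 1 library. For the 8 genes with a mean of at least 5 CPM, all 8 lay above without overlap, where 32.5% of the 11297 genes at that level did so. The median log2 change of the 10 was 0.67, and over all genes it was -0.01. Nothing is read from this median either, for the same reason. In bulk RNA, a difference in some cells and a smaller one in all cells cannot be told apart.

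**Figure D2:**
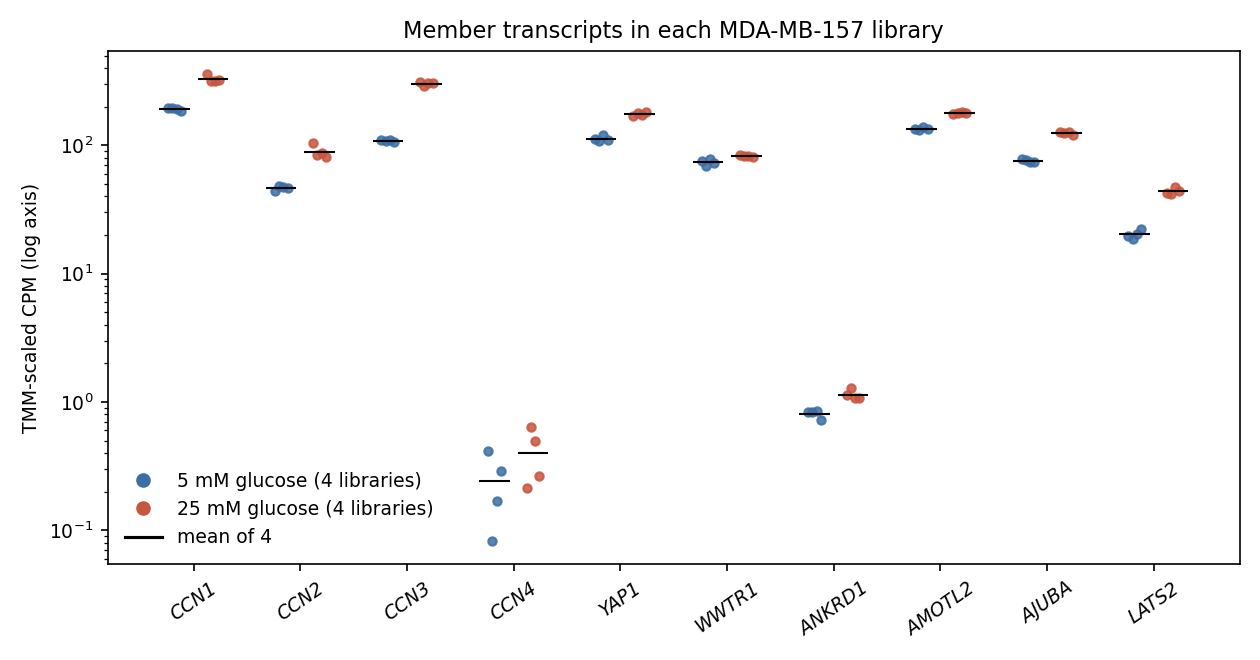
TMM-scaled CPM (log axis) of the 10 transcripts in each library, with 5 mM glucose in blue, 25 mM in red and black bars for the mean of 4. The red points lie above all blue points for every gene except CCN4, whose groups overlap below 1 CPM, and the gap is widest for CCN3 and narrowest for WWTR1.

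CCN1 (ENSG00000142871.17, chromosome 1, 85580761 to 85583950), formerly CYR61, is an angiogenic integrin ligand and a classic YAP target. It was the most abundant of the 10 per length in both groups. CCN1 was at 194.5, 193.4, 193.0 and 185.2 CPM in the 4 low glucose libraries and at 358, 317, 314 and 322 CPM in the 4 high glucose libraries. The groups did not overlap, and high glucose replicate 1 was the highest of its group. Its log2 change was 0.77 (SE 0.045), a ratio of means of 1.71, and 0.73 without high glucose replicate 1.

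CCN2 (ENSG00000118523.6, chromosome 6, 131948176 to 131951372), formerly CTGF, promotes matrix production and is the standard readout of YAP/TEAD activity. CCN2 was at 43.8, 47.9, 47.4 and 46.2 CPM at low glucose and at 104.4, 84.7, 86.9 and 80.4 CPM at high glucose. Again every high glucose library exceeded every low glucose library, and high glucose replicate 1 was the highest of its group by a wide margin. The log2 change was 0.92 (SE 0.080), a ratio of 1.92, and it was 0.85 without that library. The spread at high glucose, a coefficient of variation of 11.8%, was the widest of the 8 genes above 5 CPM. An exon of the noncoding gene LINC01013 on the other strand shares 278 bases with CCN2, and without knowledge of how strand was used in counting, reads of the pair cannot be told apart there.

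CCN3 (ENSG00000136999.5, chromosome 8, 119416446 to 119424434), formerly NOV, is the family member known for opposing some actions of CCN2. It had the largest log2 change of the 10. CCN3 was at 109.4, 107.2, 109.1 and 106.4 CPM at low glucose and at 311.3, 290.6, 303.7 and 303.2 CPM at high glucose. The libraries of each group lay close together, with the high glucose group far above. The change was 1.48 (SE 0.024), a ratio of 2.80, and 82 of the 11297 genes of at least 5 CPM had a larger rise. The coefficient of variation was 1.35% at low and 2.83% at high glucose. Another gene on the other strand (ENSG00000286282) shares 204 exonic bases with it.

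CCN4 (ENSG00000104415.14, chromosome 8, 133191039 to 133231690), formerly WISP1 and named as a WNT-induced gene, was at the floor. It had an estimated 5, 1, 2 and 4 reads in the low glucose libraries and 3, 8, 6 and 3 reads in the high glucose libraries, 0.240 ± 0.145 and 0.403 ± 0.199 CPM. The groups overlapped, and a difference was not detectable at this depth.

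The balance among the 3 expressed CCN transcripts differed between the groups. Per kb of transcript, CCN3 was at 0.522 ± 0.00775 (SD, n = 4) times the level of CCN1 at low glucose and 0.854 ± 0.038 times at high glucose. Relative to CCN2, the level of CCN3 per kb was 2.22 ± 0.108 and 3.25 ± 0.310 times, with no overlap. The ratio of CCN1 to CCN2 per kb was 4.25 ± 0.209 at low glucose, with libraries from 4.12 to 4.56, and ran from 3.52 to 4.11 at high glucose, so here the closest libraries of the groups nearly touched.

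YAP1 (ENSG00000137693.14, chromosome 11, 102110447 to 102233424) was at 111.8, 108.5, 120.7 and 109.8 CPM at low glucose and at 169.9, 177.2, 172.5 and 180.3 CPM at high glucose. The groups did not overlap, with a log2 change of 0.63 (SE 0.038) and a ratio of 1.55. WWTR1 (ENSG00000018408.14, chromosome 3, 149517235 to 149724788), which encodes TAZ, was at 75.3, 68.3, 78.1 and 73.1 CPM at low glucose and at 83.4, 82.8, 82.2 and 81.3 CPM at high glucose. Its groups were also apart, but by little: the log2 change was 0.16 (SE 0.039), a ratio of 1.12. With quantile normalization the change of WWTR1 was 0.06, and with median-of-ratios scaling 0.20. Per kb, YAP1 was at 1.43 ± 0.043 times the level of WWTR1 at low glucose and at 1.98 ± 0.071 times at high glucose, and the lowest ratio at high glucose (1.90) was above the highest at low glucose (1.48). The antisense gene WWTR1-AS1, which shares 756 exonic bases with WWTR1, averaged 0.0856 CPM in low and 0.403 CPM in high glucose libraries, and the gene ENSG00000254422 shares 628 exonic bases with YAP1 on the other strand.

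LATS2 (ENSG00000150457.9, chromosome 13, 20973036 to 21061586), the kinase that phosphorylates YAP1 and TAZ and is itself induced by them, had the second largest change. LATS2 was at 19.5, 18.5, 20.4 and 22.4 CPM at low glucose and at 42.5, 41.7, 47.4 and 43.8 CPM at high glucose. All high glucose values were above 2 times the low glucose mean of 20.2 CPM, and the log2 change was 1.08 (SE 0.066), a ratio of 2.17. Of the genes of at least 5 CPM, 283 had a larger rise. Its paralog LATS1, which was named after its values were seen, had a mean of 36.2 ± 1.24 CPM in the low and 43.3 ± 4.51 CPM in the high glucose group, a difference of 0.25 on the log2 scale with overlapping libraries (limma, adjusted p = 0.0301). That call was lost when low glucose replicate 1, 2 or 3 or high glucose replicate 2, 3 or 4 was left out (adjusted p up to 0.0761) and with quantile normalization (adjusted p = 0.0508), while the change stayed between 0.21 and 0.32 over all 8 omissions. The largest, 0.32, was that without high glucose replicate 1 (adjusted p = 0.00157).

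AJUBA (ENSG00000129474.16, chromosome 14, 22971177 to 22982551), a LIM-domain scaffold that binds LATS kinases and blocks their action on YAP1, was at 78.6, 77.1, 74.2 and 73.8 CPM at low glucose and at 127, 125, 127 and 119.8 CPM at high glucose. The libraries of each group lay close together and far from the other group, with a log2 change of 0.71 (SE 0.029) and a ratio of 1.64. AMOTL2 (ENSG00000114019.14, chromosome 3, 134355345 to 134375417), an angiomotin that tethers YAP1 at cell junctions, was at 134.4, 131.8, 137.6 and 133.3 CPM at low glucose and at 175, 179, 183 and 178 CPM at high glucose. It was higher in all 4 high glucose libraries by a smaller margin, a log2 change of 0.41 (SE 0.020) and a ratio of 1.33. ANKRD1 (ENSG00000148677.6, chromosome 10, 90912096 to 90921087), a muscle ankyrin repeat protein often used as a YAP readout, was barely expressed. It had an estimated 10 reads in each low glucose library and 16, 16, 13 and 12 reads in the high glucose libraries, or 0.834, 0.828, 0.849 and 0.728 CPM against 1.13, 1.28, 1.07 and 1.07 CPM. The groups did not overlap, but the log2 change of 0.24 (SE 0.044) was 0.44 with a pseudocount of 0.1 CPM and 0.08 with a pseudocount of 5 CPM, and the ratio of means was 1.40.

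**Figure D3:**
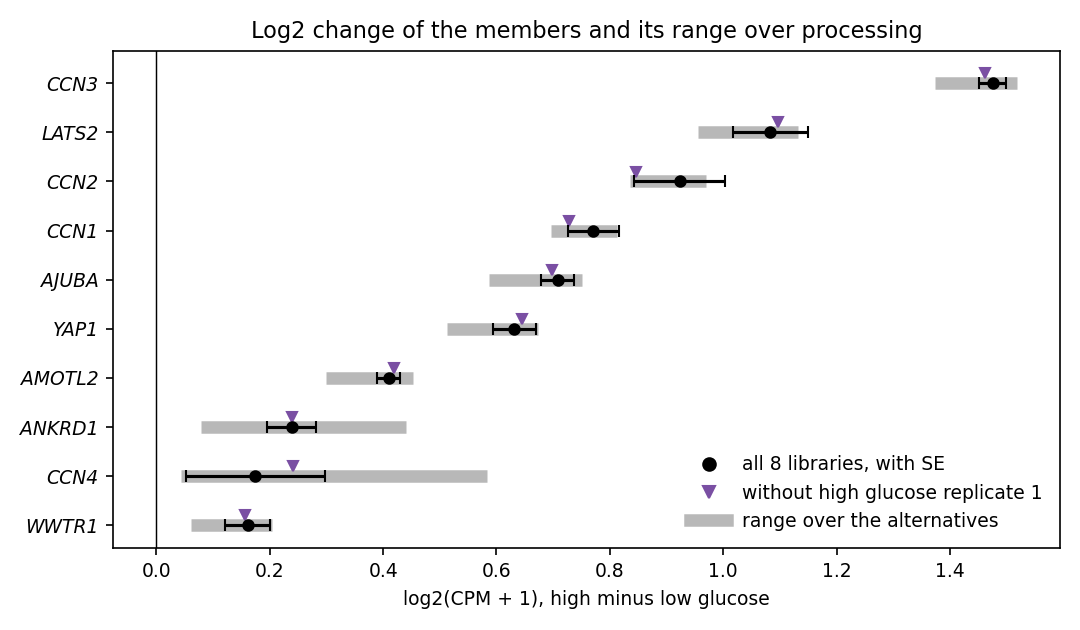
Log2 change of the 10 transcripts, high minus low glucose, with its SE over all 8 libraries (black), the value without high glucose replicate 1 (purple) and the range over the alternative settings (grey). All values are above 0, with CCN3 at 1.48 and LATS2 at 1.08 the highest, and the relative range is widest for the 2 genes near the floor, CCN4 and ANKRD1.

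Within the high glucose group, replicate 1 was the highest library for CCN1, CCN2, CCN3, WWTR1 and AJUBA and the lowest for YAP1, AMOTL2 and CCN4. With the trend of each library on transcript length taken out, which leaves out ANKRD1 and CCN4, the log2 changes were 0.79 for CCN1, 0.94 for CCN2, 1.49 for CCN3, 0.58 for YAP1, 0.11 for WWTR1, 0.36 for AMOTL2, 0.66 for AJUBA and 1.03 for LATS2. The WWTR1 groups then overlapped, with high glucose replicate 4 at 6.31 and low glucose replicate 3 at 6.33 on the log2 scale. WWTR1 remained the smallest of these 8 changes and CCN3 the largest. AMOTL2 shares 187 exonic bases with the pseudogene RPL39P5 and AJUBA 50 with the gene ENSG00000259132, so part of their reads is uncertain.

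Ordered by CPM per kb of transcript at low glucose, the levels were CCN1 84.1 ± 1.87, CCN3 43.9 ± 0.593, AMOTL2 27.6 ± 0.508, YAP1 20.9 ± 1.02, CCN2 19.8 ± 0.786, AJUBA 18.2 ± 0.559 and WWTR1 14.6 ± 0.815 (SD, n = 4). LATS2 followed at 3.64 ± 0.304, ANKRD1 at 0.452 ± 0.031 and CCN4 at 0.0463 ± 0.028 CPM per kb. YAP1 and CCN2, and CCN2 and AJUBA, overlapped between libraries and did not differ beyond their spread. At high glucose, CCN1 was at 143.9 ± 9.03 and CCN3 at 122.7 ± 3.47 CPM per kb, and CCN2, at 38.1 ± 4.51, overlapped AMOTL2 (36.7 ± 0.643). The order of CCN2 and AMOTL2 rested on high glucose replicate 1, without which, in a check chosen after seeing the data, CCN2 was at 35.9 ± 1.41 and AMOTL2 at 36.9 ± 0.548 CPM per kb (SD, n = 3).

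The rest of the pathway was examined in 4 lists compiled from general knowledge, with the 10 genes left out, and tested in the fit over all 21059 genes (limma, adjusted p under 0.05). The lists were chosen with earlier results of these data known, so their adjusted p-values are not independent of that choice. Several list genes share exonic bases with other genes, so part of their reads is uncertain. Examples are WWC2 (2177 bases with CLDN22) and TGFB2 (701 with TGFB2-AS1), both on the other strand. On the same strand, ITGB3 shares 2266 bases with ENSG00000259753, RBMS3 1029 with ENSG00000283563 and TGFB2 1371 with TGFB2-OT1. Of all genes above 0 in at least 1 library, 22.9% passed as higher and 25.8% as lower at high glucose, and 24.6% lay entirely below low glucose. For genes of at least 5 CPM, 33.6% passed as higher, 33.3% passed as lower and 32.5% lay entirely below. Of the 19 Hippo genes, kinases, scaffolds and regulators upstream of YAP1 and TAZ that were all above 5 CPM, 8 passed as higher, 2 as lower and 9 did not pass, with a median log2 change of 0.17. The count of 8 rested in part on single libraries: it was 5 without low glucose replicate 2 or 3 or high glucose replicate 2, 3 or 4, 6 without low glucose replicate 1, 7 without low glucose replicate 4, and 11 without high glucose replicate 1.

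The 2 Hippo genes that passed as lower were AMOT and FRMD6. AMOT, the angiomotin that gives the family its name and a paralog of AMOTL2, fell from 115.0 ± 3.34 to 62.4 ± 6.40 CPM (log2 change -0.88, SE 0.070, adjusted p = 6.1e-05), and FRMD6, a FERM-domain activator of the kinase cascade, fell from 366 ± 3.79 to 265.9 ± 6.23 CPM (log2 change -0.46, adjusted p = 5.9e-06). AMOT was thus lower in all 4 high glucose libraries (55.3 to 70.7 CPM against 112.0 to 117.9), whereas AMOTL2 was higher in all 4. The upstream scaffolds WWC2 and WWC1 (KIBRA) rose, from 78.2 ± 2.50 to 129.4 ± 11.4 CPM and from 9.48 ± 1.18 to 14.6 ± 0.466 CPM (adjusted p = 0.000112 and 0.00119). NF2, the tumor suppressor merlin, rose from 61.4 ± 0.949 to 74.6 ± 2.15 CPM (adjusted p = 9.7e-05), and the LATS coactivator MOB1A rose from 206.9 ± 5.53 to 289.7 ± 14.1 CPM (adjusted p = 6.3e-05).

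TEAD factors bring YAP1 and TAZ to DNA, and VGLL proteins compete for the same surface. In this list of 8 genes, 3 passed as higher, 1 as lower and 4 did not pass, with a median log2 change of 0.14. Of the 6 with a mean of at least 5 CPM, 2 passed as higher and 1 as lower. The shares of all genes at that level were 33.6% and 33.3%. TEAD2 fell from 25.2 ± 1.09 to 14.3 ± 2.30 CPM (log2 change -0.79, SE 0.105, adjusted p = 0.000725), with 23.7 to 26.1 CPM at low and 11.9 to 17.2 CPM at high glucose. TEAD4 rose from 9.09 to 11.8 CPM at low glucose to 13.2 to 15.4 CPM at high glucose (log2 change 0.46, SE 0.085, adjusted p = 0.00361), again without overlap. TEAD1 averaged 183.6 ± 3.90 CPM in low and 230.5 ± 30.4 CPM in high glucose libraries (adjusted p = 0.0287), but high glucose replicate 1, at 186.4 CPM, lay within the low glucose range. The TEAD1 call was lost with quantile normalization and when any library other than high glucose replicate 1 was left out (adjusted p 0.0534 to 0.105), with log2 changes between 0.22 and 0.33. Without high glucose replicate 1, the TEAD1 change was 0.42 (adjusted p = 9.4e-05). With the length trend taken out it was 0.29 (adjusted p = 1.3e-05). TEAD3 was at 15.4 ± 1.17 and 13.0 ± 1.81 CPM and did not pass (adjusted p = 0.110, and 0.0359 with the trend on transcript length taken out). VGLL2 rose from 2.30 ± 0.542 to 4.24 ± 0.201 CPM (adjusted p = 0.00306), VGLL3 was at 6.03 ± 0.496 and 7.61 ± 1.11 CPM (adjusted p = 0.0724), and VGLL1 was listed at 0 in every library. VGLL3 passed without high glucose replicate 1 (adjusted p = 0.00646), with quantile normalization, with the length trend taken out and with a minimum of 1 or 5 CPM (adjusted p up to 0.0405).

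Of 17 further YAP/TAZ target genes, all above 5 CPM, 8 passed as higher, 3 as lower and 6 did not pass, with a median log2 change of 0.32. PTPN14, which did not pass, is counted both here and in the Hippo list. Without high glucose replicate 1 the counts were 10 and 5. IGFBP3, a secreted binding protein of insulin-like growth factors, rose from 70.8 ± 1.23 to 283 ± 8.13 CPM (log2 change 1.98, SE 0.025, adjusted p = 1.6e-07). The growth factor TGFB2 rose from 148.2 ± 2.42 to 393 ± 34.5 CPM (log2 change 1.40, SE 0.062, adjusted p = 4.7e-06). Smaller rises were seen for F3 (tissue factor, 8.10 to 13.4 CPM), CRIM1 (299.4 to 437.0 CPM) and the receptor tyrosine kinase AXL (72.9 to 102.4 CPM), with adjusted p of 0.000182, 2.1e-05 and 8.0e-05. RBMS3, an RNA-binding protein, went the other way and fell from 53.1 ± 2.78 to 29.4 ± 0.510 CPM (log2 change -0.83, SE 0.039, adjusted p = 6.1e-06). The target list thus held genes that passed in both directions.

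The last list held the remaining CCN genes and receptors that bind CCN proteins. Of 13 listed genes 12 were examined, since ITGAM was not found by symbol in the expression table. Of the 12, 3 passed as higher, 3 as lower and 6 did not pass, with a median log2 change of -0.09. CCN5, which lacks the C-terminal domain of the other members, averaged 4.78 ± 0.344 CPM in low and 3.56 ± 0.823 CPM in high glucose libraries and did not pass (log2 change -0.36, adjusted p = 0.0604), but it passed without high glucose replicate 1 (log2 change -0.47, adjusted p = 0.00507), with a minimum of 1 CPM and with the length trend taken out (adjusted p = 0.0294 and 0.0450). CCN6 had at most 1 read in any library. The largest fall was that of LRP1, an endocytic receptor that takes up CCN2, from 201.7 ± 6.92 to 67.2 ± 8.57 CPM (log2 change -1.58, SE 0.090, adjusted p = 1.3e-05). Among integrins, ITGB3 fell from 13.7 ± 1.21 to 7.04 ± 0.783 CPM and ITGB5 from 106.7 ± 4.16 to 74.3 ± 8.15 CPM (adjusted p = 0.000222 and 0.00129). Both pair with the alpha-v subunit that binds CCN1 and CCN2. ITGAV, the gene of that subunit, is given outside the rule for named genes and their checks. It was at 323.1 ± 5.70 and 311.7 ± 16.5 CPM, with overlapping libraries, and did not pass (limma, adjusted p = 0.326). ITGB1 rose from 314.4 ± 7.10 to 387 ± 13.3 CPM, ITGB2 from 3.90 ± 1.01 to 9.84 ± 0.740 CPM and the heparan sulfate proteoglycan SDC4 from 54.2 ± 3.45 to 74.5 ± 4.38 CPM (adjusted p = 0.000199, 0.000609 and 0.000547).

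**Figure D4:**
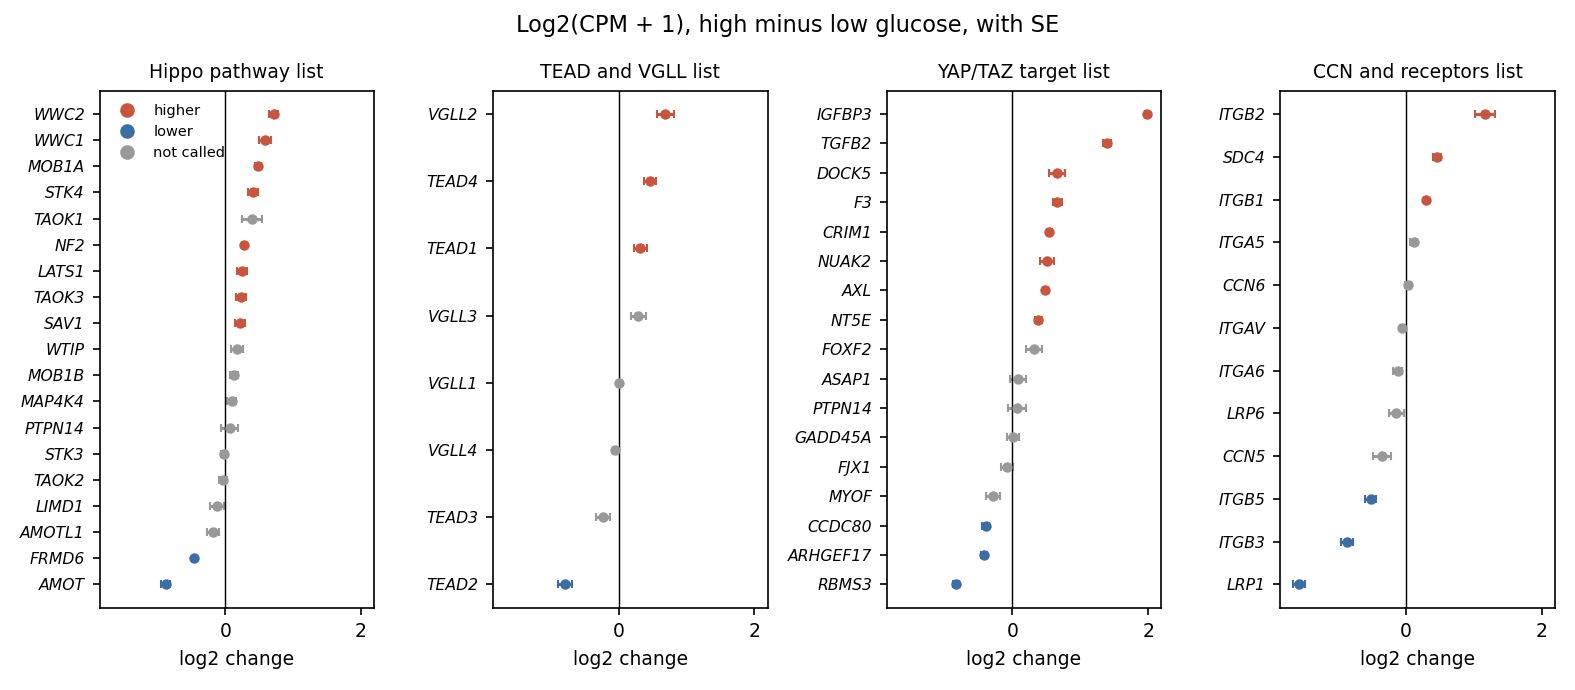
Log2 change with SE, high minus low glucose, of every gene in the 4 lists, coloured red when called higher, blue when called lower and grey when not called (limma, adjusted p under 0.05). Each list holds genes on both sides of 0, from LRP1 at -1.58 to IGFBP3 at 1.98.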

How the data were processed

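RNA was measured in 8 libraries, 4 per group, grouped by the treatment label. The authors deposited TMM-scaled CPM, for which the submitters' processing notes name edgeR and hg38, whereas the methods of the study describe hg19, so the build and the use of strand are not established for this table. Of 21077 lines, 18 Y copies of pseudoautosomal genes, identical to the X copies, were left out, and 856 of the 21059 genes were at 0 throughout. Low values lay on steps of 1 read, but only 72.0% to 73.3% were whole to within 0.005 of a read, while 100% were whole hundredths of a read, so no count test was run. High and low glucose were compared with limma 3.58.1 (R 4.3.3) on log2(CPM + 1), lmFit and eBayes with trend, 2-sided, without covariate or filter, and Benjamini-Hochberg adjustment over all genes at 0.05. The method was tested on simulated data with 2-fold changes in 200 genes of at least 5 CPM. It recovered 197 of them and made 24 false calls, and with no change simulated it made 1 call. The simulation gave every gene the same dispersion and held no trend on transcript length, unlike these data. Named list genes are TEAD1 to TEAD4, CCN5, CCN6 and up to 6 per list by adjusted p. The 10 genes and the lists were chosen with earlier results of these data known. Transcript lengths came from GENCODE 44 on GRCh37, gene spans and promoters from RefSeq GRCh38.p14, and exon overlap with other genes from the same GENCODE release. Alternatives covered pseudocount, filter, scaling, replicate block, eBayes trend, transcript length and each library left out.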

Additional observations from a re-analysis of the deposited data

Results flagged for a closer look

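Each group of 4 libraries was examined for a highest or lowest value whose gap to the nearest other exceeded, as a share of the range, Dixon's 95% critical value for groups of 4. Over the 10 genes and the named list genes, 74 groups were examined, chance gives 3.7, and 8 were found. For CCN1 the gap was 0.833 of the range for low glucose replicate 4, the lowest of its group at 185.2 CPM, and 0.8294 for high glucose replicate 1, the highest of its group at 358 CPM. The other 9 genes of the group gave none. Among the list genes the gap was 0.886 for MOB1A in low glucose replicate 1 (198.6 CPM, lowest), 0.847 for SDC4 in low glucose replicate 1 (59.3 CPM, highest), 0.856 for CRIM1 in low glucose replicate 4 (308 CPM, highest), 0.834 for ITGB1 in high glucose replicate 4 (406 CPM, highest) and 0.958 for ITGB2 in high glucose replicate 3 (10.95 CPM, highest). For CCN6 it was 1.0 in low glucose replicate 3, which rests on 1 read.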

How the results depend on the processing

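No change of direction occurred among the 10 genes under the 18 alternatives, or the 15 that kept CCN4 and ANKRD1, which drop out below a mean of 1 CPM and so also where the length trend is removed. Over the omissions of single libraries, the count of Hippo genes passing as higher ranged from 5 to 11 (8 with all libraries) and that of YAP/TAZ targets passing as lower from 3 to 5 (3 with all). TEAD and VGLL genes passing as lower numbered 2 with quantile normalization and 3 once each library's trend on transcript length was taken out (1 otherwise), and CCN and receptor genes passing as lower numbered 6 in the latter (3 with all libraries, and 3 or 4 in every other setting). The length alternative also tests fewer genes, and the cause was not tested. The other 153 list and table counts stayed within 1.5 times. With the replicate number as a replicate block, 8921 of the 21059 genes passed instead of 9849, and 6 Hippo genes passed as higher. Same-numbered libraries correlated at -0.040 to 0.069 in their deviations, and nothing in the labels pairs them. Calls over all genes numbered 8120 with a minimum of 5 CPM to 10156 without high glucose replicate 1. Median-of-ratios scaling gave 4974 higher and 4773 lower calls, against 4636 and 5213. Of the values of named list genes over the alternatives, 457 kept their call, 9 gained it and 15 lost it. Depth limits CCN4, ANKRD1 and CCN6.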
